A study of Homo sapiens with 14 samples.

Results

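The 4 human HOX clusters hold 39 protein-coding genes, taken here as the genes whose symbol is HOX followed by A, B, C or D and a number, out of 19974 protein-coding genes in the RefSeq table of GRCh38. The HOXA cluster has 11 of them on chromosome 7 (107.1 kb), HOXB has 10 on chromosome 17 (48528526 to 48728750, 200.2 kb), HOXC has 9 on chromosome 12 (53938831 to 54056030, 117.2 kb) and HOXD has 9 on chromosome 2 (176087487 to 176190907, 103.4 kb). Each cluster was examined with 20 kb on either side. These windows held 189 of the 273342 peaks used from 14 CUT&Tag peak lists.

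All libraries were made from Jurkat cells, an established line of human leukaemic T cells. In CUT&Tag an antibody brings the transposase Tn5 to a chromatin protein or histone mark, and the DNA cut nearby is sequenced. Cells infected with a lentivirus carrying an shRNA against the chromatin organiser SATB1 (shSATB1) were profiled for CTCF (3 libraries) and for H3K27ac (2 libraries). Cells infected with the control shRNA (shCtrl) were profiled for CTCF (3), H3K27ac (2) and SATB1 (2), and 2 further libraries were made for the nuclear matrix protein Matrin 3, with no shRNA on their labels. No label states that replicates were separate cultures or infections, so the spread behind each p-value is that between libraries and may be technical. Peak lists do not measure SATB1 itself and so do not check the knockdown.

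HOX genes encode homeodomain transcription factors that set position along the body axis, and their order within a cluster follows their order of use from head to tail. Genes with the same number in different clusters are paralogues. In tissues that do not use them, HOX clusters are held silent by Polycomb repressors, while MLL proteins keep them active. CTCF, a zinc finger protein that anchors chromatin loops and insulates neighbouring domains, binds within the clusters between active and silent stretches. H3K27ac marks active promoters and enhancers.

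The CTCF lists held 14695 to 20284 peaks in shSATB1 and 31141 to 32540 in shCtrl, so the shSATB1 lists were 44.3% shorter on average. Calling stopped at a total signal of 6017 to 7332 in the shSATB1 lists and 13359 to 14792 in the shCtrl lists, without scaling between libraries. The H3K27ac lists held 15972 and 17925 peaks in shSATB1 and 17141 and 17863 in shCtrl. The 2 SATB1 lists were counted as 1 sample, because 6001 peaks, 40.8% of the shorter list, began at the same base in both. The Matrin 3 lists held 24566 and 2105 peaks. Of the T cell genes CD2, CD3D, CD3E, CD3G, CD7 and LCK, all 6 had H3K27ac within 2 kb of an end in every shSATB1 and shCtrl library, and none of the B cell genes MS4A1 and PAX5 or the myeloid genes CSF1R, MPO and SPI1 had it in any.

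The promoters of 3 HOXA genes are shown as examples. A CTCF maximum lay in or within 100 bp of each, and the CTCF calls there differed. The HOXA7 promoter also held a CTCF maximum, called in 0 of 3 shSATB1 and 3 of 3 shCtrl libraries, and is not shown. Each is the 250 bases before an annotated start (RefSeq, GRCh38.p14), read 5′ to 3′ on the minus strand, and capitals mark the CTCF maximum with 10 bases on either side where it falls inside. HOXA3 (chr7:27150951-27151200) had CTCF in all 6 libraries, with its maximum just downstream of the bases shown. HOXA10 (chr7:27179862-27180111) had CTCF in 0 of 3 shSATB1 and 3 of 3 shCtrl libraries. HOXA13 (chr7:27200092-27200341) had it in 2 of 3 shSATB1 and 3 of 3 shCtrl libraries.
HOXA3: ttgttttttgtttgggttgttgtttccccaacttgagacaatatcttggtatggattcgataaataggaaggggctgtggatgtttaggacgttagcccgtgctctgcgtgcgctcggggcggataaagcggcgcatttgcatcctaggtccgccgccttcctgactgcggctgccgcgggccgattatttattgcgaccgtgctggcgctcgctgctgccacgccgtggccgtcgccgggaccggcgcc
HOXA10: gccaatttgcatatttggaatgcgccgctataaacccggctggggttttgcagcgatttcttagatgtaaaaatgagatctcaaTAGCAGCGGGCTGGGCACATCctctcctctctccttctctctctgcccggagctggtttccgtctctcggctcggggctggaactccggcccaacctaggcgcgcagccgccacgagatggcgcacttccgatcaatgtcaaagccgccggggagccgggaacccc
HOXA13: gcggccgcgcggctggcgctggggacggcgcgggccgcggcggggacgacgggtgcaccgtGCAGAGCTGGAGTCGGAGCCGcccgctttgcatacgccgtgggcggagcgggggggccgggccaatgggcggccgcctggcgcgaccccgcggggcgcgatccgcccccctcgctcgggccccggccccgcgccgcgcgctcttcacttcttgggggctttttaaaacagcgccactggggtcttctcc
The CTCF maximum lay 156 bases before the start of HOXA10 and 179 bases before that of HOXA13. GC content was 58.8% in the HOXA3 and HOXA10 stretches and 78.0% in that of HOXA13. The core consensus of the CTCF motif was searched on both strands of promoters of 300 bases, which run 50 bases past the start. It was in none of the 27 promoter entries that 20 of the 39 HOX genes had, and in 0.470% of all 35116 promoters. This consensus was chosen after 2 looser patterns of the same motif had been searched and their matches seen. With any base allowed at the 4 ambiguous positions of the consensus, 1 of the 27 HOX entries (HOXA10) and 2.41% of all promoters held a match. With any base allowed at 5 positions, those 4 and the A just before them, 4 of the 27 (HOXA10, HOXA11, HOXD1 and HOXD10) and 10.6% of all promoters did, so whether a HOX promoter matches depends on how strictly the motif is written.

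**Figure D1:**
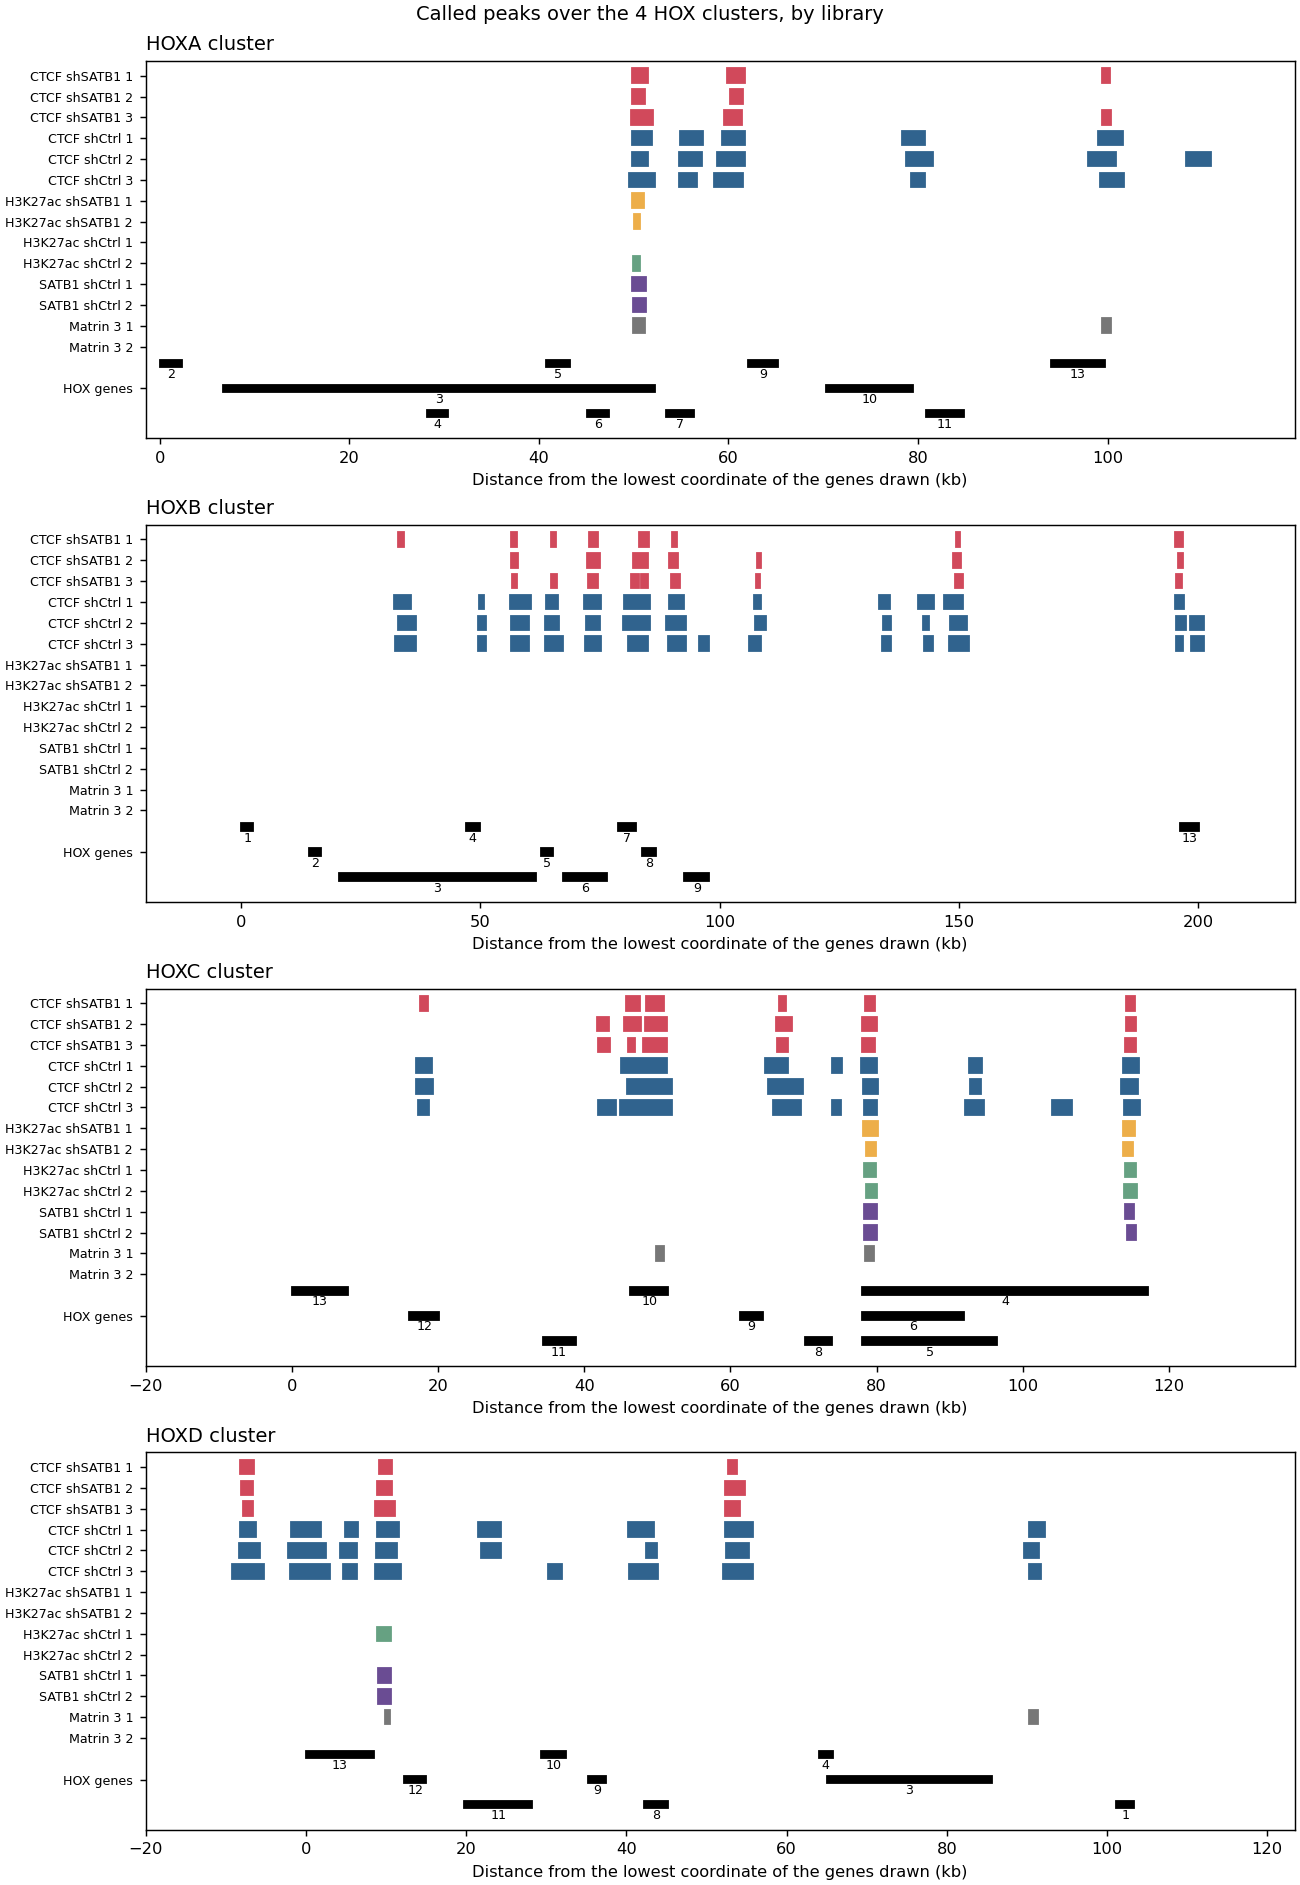
Called peaks in each of the 14 libraries (rows, coloured by target and arm) over the HOXA, HOXB, HOXC and HOXD clusters with 20 kb on either side, against distance in kb from the lowest coordinate of the genes drawn; black bars are the genes, labelled by number, and the HOXA panel begins beside HOXA2. The HOXD panel holds 3 CTCF peaks in each shSATB1 row and 8 in each shCtrl row, and the HOXB panel holds no peak of any other target.

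Among the 4 targets profiled, CTCF had the most peaks in the clusters, and fewer CTCF peaks were called there in shSATB1. Over the 4 windows the shSATB1 libraries had 20, 18 and 21 CTCF peaks and the shCtrl libraries had 33, 34 and 37, with means of 19.7 ± 1.53 and 34.7 ± 2.08 (SD, n = 3 each). The arms did not overlap, and the difference of 15.0 peaks gave p = 0.1 in a two-sided exact permutation test, the smallest that 3 against 3 libraries allow. The HOX windows had 43.3% fewer peaks in shSATB1, close to the 44.3% by which the whole lists were shorter. Each list was then shortened to its 14695 peaks of highest total signal. The windows held 20, 17 and 15 peaks in shSATB1 and 16, 16 and 17 in shCtrl, a difference of +1.0 (exact permutation p = 0.8). These counts include 2 peaks for the HOXC10 region in each shSATB1 library and 1 in each shCtrl library. The sign of that difference is therefore not read as a gain.

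The clusters differed in how many peaks they held. HOXD had 3, 3 and 3 CTCF peaks in shSATB1 and 8, 8 and 8 in shCtrl, 62.5% fewer. HOXA had 3, 2 and 3 in shSATB1 and 6, 7 and 6 in shCtrl, 57.9% fewer. HOXB, the longest cluster, had 8, 7 and 9 in shSATB1 and 12, 13 and 14 in shCtrl, 38.5% fewer. In these 3 clusters the arms did not overlap (exact permutation p = 0.1 each). In HOXC the arms overlapped, with 6, 6 and 6 peaks in shSATB1 and 7, 6 and 9 in shCtrl (exact permutation p = 0.4). That overlap rests on the HOXC10 region, called as 2 peaks in each shSATB1 library and as a single peak in each shCtrl library. Counted by merged region the HOXC arms did not overlap: 55.6% ± 0.0 of 9 regions were called in shSATB1 and 81.5% ± 17.0 in shCtrl (SD, n = 3 each). With lists of equal length HOXD still had 3 peaks in each shSATB1 library and 4 in each shCtrl library. The other clusters averaged as many or more peaks in shSATB1 as in shCtrl. For HOXC that average again counts the HOXC10 region as 2 peaks in each shSATB1 library and as 1 in each shCtrl library.

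**Figure D2:**
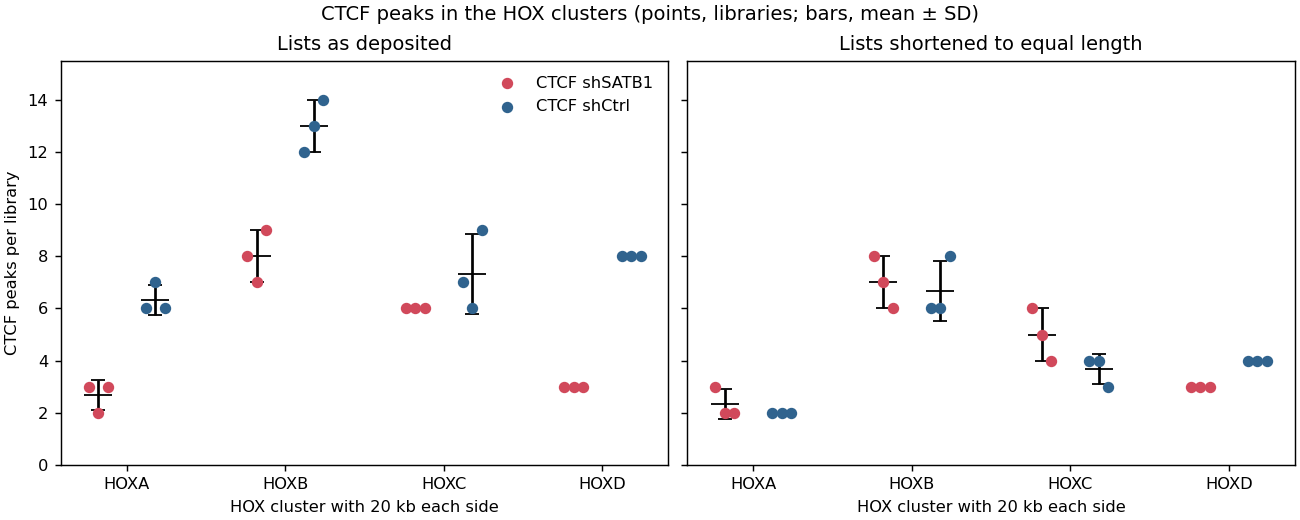
CTCF peaks per library in each HOX cluster window; points are libraries, horizontal bars and whiskers are mean ± SD (n = 3 each), with the lists as deposited on the left and shortened to 14695 peaks each on the right. The arms are apart in HOXA, HOXB and HOXD on the left, and on the right they stay apart in HOXD, at 3 peaks in each shSATB1 library and 4 in each shCtrl library. The overlap in HOXC on the left rests on the HOXC10 region, split into more peaks in shSATB1 than in shCtrl.

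CTCF peaks also covered less of the clusters. The covered length was 29.3, 33.7 and 34.5 kb in the shSATB1 libraries and 91.9, 96.5 and 105.5 kb in the shCtrl libraries, 66.9% less on average, beside 65.4% less over the whole lists. By cluster it was 76.3% less in HOXD, 73.3% less in HOXA, 68.3% less in HOXB and 49.7% less in HOXC (exact permutation p = 0.1 each). With lists of equal length the covered length was still lower, at 29.3 kb in shSATB1 and 57.4 kb in shCtrl (exact permutation p = 0.1). The covered length of the whole lists was not computed in that setting. CTCF peaks were narrower in shSATB1 over the whole deposited lists, with median widths of 1469 to 1745.5 bp, beside 2371 to 2559 bp in shCtrl. The lower length is therefore not shown to be particular to HOX.

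To set the HOX regions beside others, the share of regions called was taken in each library. Of 34 HOX regions present in at least 2 of 3 shCtrl lists, 52.0% ± 4.49 were called in shSATB1, beside 52.2% ± 8.36 of all other such regions (SD, n = 3 libraries). These regions entered by their calls in shCtrl, so their shCtrl shares, 97.1% ± 0.0 for HOX and 96.5% ± 1.47 for others, were high by construction, and no test between arms is given for them. Over regions called in any list of either arm, a base added after the data were seen, 47.0% ± 2.96 of the 39 HOX regions were called in shSATB1 and 88.9% ± 5.34 in shCtrl. Of all other regions 46.4% ± 7.59 were called in shSATB1 and 89.1% ± 2.97 in shCtrl. The difference between HOX and other regions was 0.82 percentage points higher in shSATB1 than in shCtrl (exact permutation p = 1.0).

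By cluster, on that wider base, the same change was −12.9 points for HOXD, −9.68 for HOXA, +4.61 for HOXB and +16.8 for HOXC. The exact permutation p-values were 0.1 for HOXD, 0.4 for HOXA, 0.6 for HOXB and 0.2 for HOXC (adjusted p = 0.4 to 0.6 over the 4 clusters). No p-value could fall below 0.1 with 3 against 3 libraries, so these tests could not decide whether a cluster differed. With regions chosen from shCtrl the changes were −14.1, −11.3, +5.81 and +10.9 points in the same order. On that base 1 library moved them by a wide margin: without shSATB1 replicate 1 they were −18.4 for HOXD, −18.4 for HOXA, +0.153 for HOXB and +1.80 for HOXC. Leaving out each library in turn gave −19.2 to −10.1 for HOXD, −18.4 to −5.31 for HOXA, +0.153 to +8.79 for HOXB and +1.80 to +17.3 for HOXC. Without a shCtrl library, regions had to be called in both remaining shCtrl lists. The difference between HOX and other regions in shCtrl was then 0 by construction. The −19.2 for HOXD, without shCtrl replicate 3, is such a value, so it does not measure the weight of that library alone. With lists of equal length the change for HOXA, over regions chosen from shCtrl, was +13.2 points. Both HOXA regions left in the shCtrl lists were then in every list of both arms. The change thus came from the share of other regions called.

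Spacing between neighbouring CTCF maxima was compared between arms, and not tested between clusters. In HOXB the median gap was 10.3, 17.4 and 8.63 kb in shSATB1 and 8.62, 8.58 and 8.51 kb in shCtrl, the closest spacing among the clusters in shCtrl. In HOXD it was 30.3, 30.2 and 30.2 kb in shSATB1 and 10.0, 10.1 and 10.5 kb in shCtrl (exact permutation p = 0.1). In HOXA it was 24.7, 10.3 and 24.7 kb in shSATB1, from 2, 1 and 2 gaps, and 18.9, 14.6 and 18.8 kb in shCtrl. In HOXC it was 16.8, 12.0 and 12.0 kb in shSATB1 and 17.6, 20.7 and 10.4 kb in shCtrl. The arms overlapped in HOXA and HOXC (exact permutation p = 0.6 each) and did not in HOXB and HOXD. In HOXB they were barely apart, at 8.63 kb in 1 shSATB1 library and 8.62 kb in 1 shCtrl library. In HOXD each shSATB1 median came from 2 gaps. The HOXC medians in shSATB1 also count the gap between the 2 peaks called in the HOXC10 region. Over all clusters the median gap was 15.3 ± 2.89 kb in shSATB1 and 10.3 ± 0.98 kb in shCtrl (SD, n = 3 each), a difference of +5.04 kb (exact permutation p = 0.1). It was +2.24 kb with lists of equal length (exact permutation p = 0.4) and +3.32 kb over the span of the HOX genes alone (exact permutation p = 0.3). Both medians were below those of the whole lists, 37.3 kb in shSATB1 and 26.5 kb in shCtrl.

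The CTCF peaks of both arms merged into 39 regions in the windows, where peaks sharing at least 1 bp were joined. A region was called lost if it was present in every shCtrl and no shSATB1 list, and kept if it was present in all 6. Lost regions numbered 11 of 39 (28.2%), beside 22.7% of all merged CTCF regions, and kept regions 15 of 39 (38.5%), beside 35.7%. No HOX region was gained, beside 0.00879% of all regions. By cluster, 4 of 9 regions were lost in HOXD, 3 of 7 in HOXA, 3 of 14 in HOXB and 1 of 9 in HOXC. The maximum lay inside an annotated HOX gene for 19 regions, between HOX genes for 17 and outside them for 3.

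The lost regions ranked low among the shCtrl peaks. Each peak was ranked by its maximum signal among all peaks of its list, with 100 as the highest percentile. In the shCtrl lists the mean percentile of the 11 lost regions had a median of 20.05 (5.49 to 46.7), and that of the 15 kept regions a median of 84.4 (40.6 to 93.8). Over all CTCF regions the medians were 27.9 for lost and 79.5 for kept. When the lists had equal length, 10 of the 11 lost regions were in no list of either arm and 13 of the 15 kept regions were in all 6 lists. An effect of the shRNA on these regions and the shorter shSATB1 lists cannot be told apart.

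**Figure D3:**
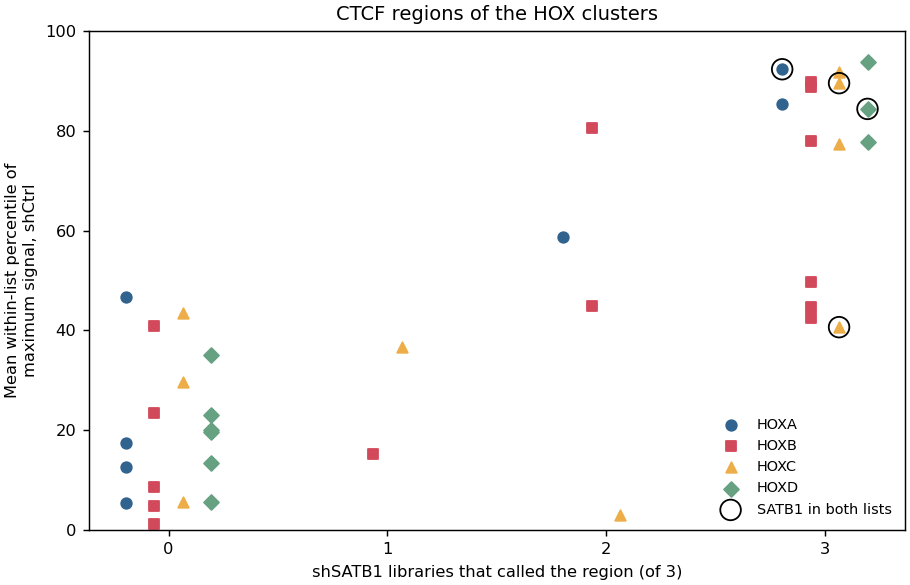
Each point is 1 of the 39 CTCF regions of the HOX windows: the number of shSATB1 libraries that called it (horizontal, points offset by cluster) against the mean percentile of its maximum signal in the shCtrl lists that called it (vertical). Regions absent from shSATB1 sit at 46.7 or below, regions called in all 3 sit at 40.6 or above, and circles mark the 4 with SATB1.

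In HOXD one region stood out from that pattern, and it was named after its values were seen. It lies at the lower-coordinate end of HOXD13, a gene of digit and genital development, at chr2:176085274-176090545. It was in no shSATB1 list, while in the shCtrl lists its total signal was 43555, 49636 and 55336 and its peaks were 3737, 4778 and 5030 bp wide. Its percentile by maximum signal was 35.2, 32.8 and 37.1 in those lists. With lists of equal length it was still in 3 shCtrl and 0 shSATB1 lists, 1 of 21 HOX regions lost in that setting, beside 3.41% of all regions, and none was gained, beside 1.14%. That setting ranks peaks by total signal, which sums over the width of a peak.

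The other HOXD losses were a second region in HOXD13 (chr2:176091742-176093938, shCtrl percentile 20.05), a region at HOXD8 (chr2:176127708-176131455, 5.49) and a region over the long noncoding RNAs HAGLR and HAGLROS between HOXD3 and HOXD1 (chr2:176177162-176179754, 13.3). HOXD kept 3 regions. The strongest CTCF region of all 4 windows in shCtrl lay between HOXD8 and HOXD4 (chr2:176139566-176143245), with percentiles of 94.0, 93.7 and 93.8 in the shCtrl lists. In the shSATB1 lists its percentiles were 85.7, 86.1 and 86.4, each within its own shorter list. The others lay between HOXD13 and HOXD12 (chr2:176096089-176099364, shCtrl percentile 84.4) and over EVX2, the homeobox gene that borders the cluster (chr2:176078296-176082285, 77.8).

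The regions lost in HOXA included one at HOXA7 and one between HOXA10 and HOXA11. The HOXA7 region (chr7:27155105-27157614) had shCtrl percentiles of 12.5, 10.1 and 15.0. The region between HOXA10 and HOXA11 (chr7:27178620-27181979), which holds the HOXA10 promoter printed above, had 43.3, 51.5 and 45.4, the highest mean of the 11 lost regions. HOXA kept 2 regions, at the upper end of HOXA3 (chr7:27149836-27152568, shCtrl percentile 92.4) and between HOXA7 and HOXA9 (chr7:27158778-27162146, 85.4), with maxima 10.3 kb apart.

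HOXB kept 6 regions, in HOXB3, HOXB6 and HOXB8, between HOXB8 and HOXB9, and at 2 places between HOXB9 and HOXB13. Gaps between their maxima were 16.9, 10.3 and 5.92 kb among HOXB3 to HOXB9 and 59.6 and 46.2 kb across the long stretch to HOXB13. The strongest in shCtrl were in HOXB3 (chr17:48584755-48589088, percentile 89.8) and HOXB6 (chr17:48600255-48603799, 88.9). Its 3 losses lay at HOXB4, which promotes self-renewal of blood stem cells (chr17:48578072-48579754, 23.5), and over LINC02086 between HOXB9 and HOXB13 (8.57 and 40.9).

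HOXC lost 1 region, near the upper ends of HOXC5 and HOXC6 (chr12:54030922-54033475, shCtrl percentile 43.4). It kept 4, at HOXC10 (chr12:53983732-53990896, 91.9), between HOXC9 and HOXC8 (chr12:54003604-54008773, 77.5), at the shared lower end of HOXC4, HOXC5 and HOXC6 (chr12:54016695-54019063, 89.6) and within HOXC4 (chr12:54052290-54054850, 40.6). The HOXC10 region was 1 wide peak of 6350, 6195 and 7165 bp in the shCtrl libraries. In each shSATB1 library it was called as 2 narrower peaks, which raises the shSATB1 peak count of HOXC. In HOXA, HOXB and HOXC a kept region lay between the gene numbered 9 and the next gene of lower number, whereas in HOXD no kept region lay there, and the lost region at HOXD8 reached into that stretch.

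**Figure D4:**
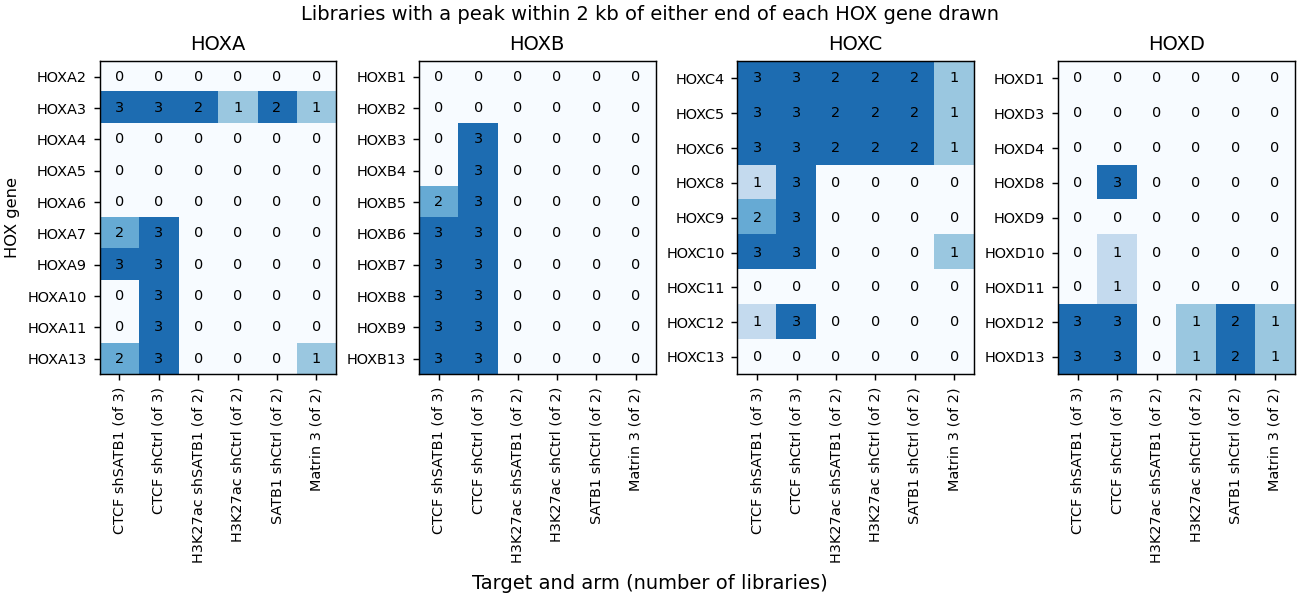
Number of libraries (printed in each cell; darker for a larger share of the libraries) with a peak within 2 kb of either annotated end of each HOX gene drawn, by cluster, target and arm. CTCF is in all 6 libraries at genes of every cluster, and H3K27ac is in every library of both arms at HOXC4, HOXC5 and HOXC6.

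Counted by gene, CTCF lay within 2 kb of an annotated end of 17, 15 and 17 HOX genes in shSATB1 and of 26, 25 and 26 in shCtrl. The means were 16.3 ± 1.15 and 25.7 ± 0.577 (SD, n = 3 each), 36.4% fewer in shSATB1, beside 27.4% fewer over all protein-coding genes (exact permutation p = 0.1, the smallest possible). With lists of equal length the means were 15.3 in shSATB1 and 16 in shCtrl (exact permutation p = 0.8). CTCF was at an end of 25 of 39 HOX genes in every shCtrl library (64.1%), beside 58% of all protein-coding genes.

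In 6 of the 39 genes (15.4%) CTCF was at an end in every shCtrl and no shSATB1 library, beside 8.58% of all protein-coding genes; set against those genes that carried CTCF throughout shCtrl, this was 6 of 25, beside 14.8%. They included HOXA10, HOXA11, HOXB3, HOXB4 and HOXD8. HOXA10, which acts in blood progenitors and the uterus, and HOXA11, a forearm and uterine patterning gene, share a single region. HOXB3 kept a region inside the gene, but its shSATB1 peaks ended more than 2 kb from the gene's end. HOXC had no gene in this class.

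CTCF was at an end in all 6 libraries for 13 of the 39 genes (33.3%), beside 37.9% of all protein-coding genes. They were HOXA3, HOXA9, HOXB6, HOXB7, HOXB8, HOXB9, HOXB13, HOXC4, HOXC5, HOXC6, HOXC10, HOXD12 and HOXD13. HOXA9 is a driver of blood progenitor growth and HOXB13 a prostate and tail-bud gene. HOXA7, HOXA13, HOXB5 and HOXC9 had it in 2 of 3 shSATB1 and 3 of 3 shCtrl libraries, and HOXC8 and HOXC12 in 1 of 3 shSATB1 and 3 of 3 shCtrl libraries. HOXD10 and HOXD11 had it in 0 of 3 shSATB1 and 1 of 3 shCtrl libraries. A call at an end can come from a region shared with a neighbour. The shSATB1 calls at HOXD13 came from the region between HOXD13 and HOXD12, and those at HOXA7 from the region at HOXA3. The CTCF regions over the HOXD13 and HOXA7 promoters were in 0 of 3 shSATB1 and 3 of 3 shCtrl libraries. No CTCF peak lay at an end in any library for 12 genes (30.8%), beside 36.8% of all protein-coding genes, among them HOXB1, HOXB2, HOXC11, HOXC13, HOXD1 and HOXD3.

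H3K27ac was sparse over the clusters and did not separate the arms. Each shSATB1 and each shCtrl library had 3 peaks in the 4 windows. They covered 4.16 ± 0.98 kb in shSATB1 and 4.43 ± 0.682 kb in shCtrl (SD, n = 2 each; exact permutation p = 0.667, where 2 against 2 libraries can reach 0.3333). HOXB had no H3K27ac peak in any library. No HOX region was lost, beside 5.95% of all H3K27ac regions, and none was gained, beside 2.62%; of the 4 regions, 2 were present in all 4 lists, beside 59.7%. With lists of equal length the HOXA3 region counted as gained, 1 of 4, beside 3.4% of all regions, and none was lost, beside 5.68%.

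HOXC alone carried H3K27ac in all 4 libraries. One region lay at the shared lower end of HOXC4, HOXC5 and HOXC6 (chr12:54016991-54019027), with percentiles of 85.4 and 59.4 in shSATB1 and 74.5 and 57.4 in shCtrl. The second lay within HOXC4 (chr12:54052617-54054435), with 57.4 and 45.8 in shSATB1 and 62.5 and 39.1 in shCtrl. For both regions the arms overlapped, and their maxima were about 35 kb apart. The HOXA3 region (chr7:27150213-27151470) was called in 2 of 2 shSATB1 and 1 of 2 shCtrl libraries, with percentiles of 29.3 and 34.6 in shSATB1 and 39.1 in shCtrl. The region between HOXD13 and HOXD12 (chr2:176096353-176098079) was called in 0 of 2 shSATB1 and 1 of 2 shCtrl libraries, at a percentile of 5.67.

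By gene, H3K27ac was at an end of 3 of 39 HOX genes in both shCtrl libraries (7.69%), beside 38.8% of all protein-coding genes. They were HOXC4, HOXC5 and HOXC6, which are annotated from the same lower coordinate and so share 1 peak, and none of the 3 lost it, beside 2.18% of all genes with H3K27ac in both shCtrl libraries. At 33 of 39 HOX genes (84.6%) no library had H3K27ac at an end, beside 54.3% of all protein-coding genes. The nearest H3K27ac regions present in all 4 libraries outside the clusters lay at MTX2 and LNPK, 77.7 and 84.7 kb from HOXD, and near SKAP1 and at CALCOCO2, 73.6 and 101 kb from HOXB. They lay 202 and 210 kb from HOXC, at CBX5 and near CALCOCO1, and 539 and 889 kb from HOXA, at TAX1BP1 and CBX3.

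SATB1 occupied 4 places in the clusters of shCtrl cells: the upper end of HOXA3, the shared lower end of HOXC4 to HOXC6, the interior of HOXC4, and the stretch between HOXD13 and HOXD12. The peak at HOXC4 to HOXC6 was the highest, at percentiles of 79.97 and 82.8 in the SATB1 lists. The HOXA3 peak was at 18.8 and 18.5, the HOXD12 and HOXD13 peak at 13.01 and 3.77, and the peak within HOXC4 at 7.94 and 12.6. All 4 SATB1 regions overlapped a CTCF region present in all 6 CTCF lists, as did 43.8% of the 13072 SATB1 regions of the whole series. None of the 11 lost CTCF regions overlapped a SATB1 region, but only 4 of 34 HOX CTCF regions in at least 2 shCtrl lists did. The share over all lost CTCF regions of the series was not computed, so no result about losses is read from this count. SATB1 was at an end of 6 of 39 HOX genes (15.4%), beside 24.5% of all protein-coding genes.

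Read from CTCF, the overlaps were few. Of the 34 HOX CTCF regions in at least 2 shCtrl lists, 4 overlapped SATB1 (11.8%), beside 27.2% of all such CTCF regions. H3K27ac overlapped 2 (5.88%), beside 39.5%, and the longer Matrin 3 list overlapped 6 (17.6%), beside 50.1%. That Matrin 3 list had peaks at HOXA3, HOXA13, HOXC10, HOXC4 to HOXC6, HOXD12 and HOXD13, and HAGLR, with the highest at HOXC4 to HOXC6 (percentile 88.2) and HOXA13 (65.3). The shorter Matrin 3 list had none. HOXB had 13 of the 34 CTCF regions and no peak of SATB1, H3K27ac or Matrin 3 in any list. No control library was used here, so signal from open chromatin that all targets may share was not told apart from binding.

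MicroRNA genes inside the clusters also differed in CTCF. CTCF lay within 2 kb of MIR10A, next to HOXB4, and of MIR615, within HOXC5, in 0 of 3 shSATB1 and 3 of 3 shCtrl libraries. These are the lost regions at HOXB4 and near HOXC5 and HOXC6 already counted above. With lists of equal length both regions were in no list of either arm. The share over all microRNA genes was not computed. It lay within 2 kb of MIR196A2, beside HOXC10, and MIR3185, beside HOXB13, in all 6 libraries, and of MIR196B, MIR196A1, MIR10B and MIR7704 in none. The mature sequences of 4 products are given, those of MIR10A and MIR615 because CTCF was called there in shCtrl alone, and the miR-196 pair because their genes differ in CTCF; capitals mark the seed, bases 2 to 8 (RefSeq, GRCh38.p14).
hsa-miR-10a-5p: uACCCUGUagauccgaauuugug
hsa-miR-615-3p: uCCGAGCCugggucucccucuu
hsa-miR-196a-5p: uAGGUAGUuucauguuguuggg
hsa-miR-196b-5p: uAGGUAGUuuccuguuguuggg
The miR-196a and miR-196b products share a seed, while MIR196A2 in HOXC had CTCF in all 6 libraries and MIR196A1 in HOXB and MIR196B in HOXA had it in none.

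Regulators and relatives of HOX genes, whose lists were drawn up with earlier results of these data known, were counted in the same way. Over all protein-coding genes, H3K27ac was at an end in both shCtrl libraries in 38.8%, CTCF was lost in 8.58% and SATB1 was at an end in 24.5%. With 1 or 2 genes in each list, the CTCF losses were near that share. Of 15 MLL and elongation genes, 14 had H3K27ac at an end in both shCtrl libraries, and CTCF was lost at 2, DPY30 and KDM6A. Of 12 Polycomb genes, 5 had H3K27ac in both shCtrl libraries (CBX8, EED, EZH2, JARID2 and SUZ12), and CTCF was lost at RNF2. Of 10 TALE homeodomain genes, whose products bind DNA together with HOX proteins, PBX3, PBX4 and PKNOX1 had H3K27ac in both shCtrl libraries, and CTCF was lost at MEIS2. Of 9 ParaHox, EVX and related genes, none had H3K27ac in both shCtrl libraries and none had SATB1, and CTCF was lost at CDX2, a gene of the hindgut. SATB1 was at an end of 6 of the 15 MLL and elongation genes (40.0%), 5 of the 12 Polycomb genes (41.7%) and 3 of the 10 TALE genes (30.0%). H3K27ac was lost or gained in no gene of these 4 lists, beside 0.846% and 0.501% of all protein-coding genes. Of the other protein-coding genes inside the windows, PRAC1, PRAC2 and the readthrough gene HOXA10-HOXA9 had CTCF at an end in all 6 libraries, and EVX2 in 2 of 3 shSATB1 and 3 of 3 shCtrl libraries.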

How the data were processed

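Per the labels, 14 CUT&Tag libraries of Jurkat cells were deposited with 1 peak list each, so replicates were not pooled. For each peak the deposited lists give its position and the authors' signal (coverage, summed and at its highest) in whole numbers, with no scaling recorded, so signal served to rank or select peaks inside 1 list at a time. The tools named for these lists, per the submitters' processing notes, are SEACR, Bowtie2, Trim Galore, deepTools, SAMtools and, except for Matrin 3, MACS2, with the build GRCh38 (hg38). Versions, filters and control libraries are not given in the sources used here, and the depth of each library is unknown.

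Peaks outside chromosomes 1 to 22 and X, 405 of 273747 (0.148%), were left out. Positions are 1-based. Genes came from RefSeq GRCh38.p14, in a table without strands or exons, so a peak within 2 kb of either end of a gene counted. Arms were compared over libraries by exact permutation, two-sided, with smallest p-values of 0.1 (3 against 3) and 0.3333 (2 against 2). The 4 cluster tests of the share of regions called were Benjamini-Hochberg adjusted. Alternatives were equal list length, other flanks (0 and 50 kb), other gene ends, an overlap of 50%, windows of 500 bp on peak maxima, a replicate block, each library left out in turn and, added after the data were seen, regions called in any list of either arm. The members and lists were chosen with earlier results of these data known. Named genes were the HOX genes, other protein-coding genes in the windows and the lists; microRNA genes and the CTCF motif search, in 3 patterns, were added after the data were seen. TRAC had no protein-coding entry. Some genes and the regions at them are counted in totals but not reported here by name. The region scripts were tested on simulated data. Python 3.11.15, numpy 2.4.6, pandas 2.3.3 and matplotlib 3.10.9 were used.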

Additional observations from a re-analysis of the deposited data

How the results depend on the processing

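Of 99 alternatives over the 4 clusters together, 86 did not reverse the direction or, for counts of regions, stayed within 1.5 times. Of 136 for single clusters, 126 did the same. A difference that fell to 0 counted as not reversed, as at equal list length for genes with H3K27ac at an end. Where the main difference was 0, only 0 counted. The replicate block leaves every difference as it was, so it could not count otherwise. No test could fall below 0.1, so these counts cover direction and not significance, and some sizes shrank greatly. Counts of CTCF peaks take the HOXC10 region as 2 peaks in each shSATB1 library and as 1 in each shCtrl library, also at equal list length. Equal list length (14695 CTCF or 15972 H3K27ac peaks) turned the shSATB1 minus shCtrl difference in CTCF peaks to +1.0, in HOXA to +0.3333, in HOXB to +0.3333 and in HOXC to +1.33. It left 1 of the 11 lost CTCF regions, moved the covered CTCF length from −65.5 to −28.1 kb and the count of genes with CTCF at an end from −9.33 (exact permutation p = 0.1) to −0.667 (exact permutation p = 0.8), and took the median gap to +2.24 kb; the gap was +3.32 kb over the gene span alone. It also turned the HOX share of CTCF calls, over regions chosen from shCtrl, to +2.73 points and that of HOXA to +13.2 points. The HOXA change came from the other regions, because both HOXA regions left in shCtrl were in every list. For H3K27ac, equal list length gave +0.5 peaks, +0.116 kb and 1 gained region.

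The HOX share was −0.83 points over regions chosen from shCtrl. Windows on the maxima turned it to +1.05 points, and regions called in any list, a base added after the data were seen, to +0.82. Without shSATB1 replicate 2 it was +2.04 and without shSATB1 replicate 3 it was +2.64, in a range of −7.16 to +2.64. Leaving out 1 library at a time gave −15.8 to −13.8 CTCF peaks, −68.5 to −61.7 kb covered, 11 to 13 lost regions, −9.67 to −8.67 genes and +4.14 to +6.71 kb of median gap. H3K27ac peaks stayed at 0.0, H3K27ac genes at −1.0 to 0.0. H3K27ac covered length ranged from −0.966 to +0.42 kb, being +0.42 without shSATB1 replicate 2 and +0.21 without shCtrl replicate 1. H3K27ac regions lost or gained were 0 to 2, with 2 without shCtrl replicate 2. Lost regions in HOXC were 2 without shSATB1 replicate 1 and 2 without shCtrl replicate 2.

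Same-numbered CTCF libraries had correlations of deviations of −0.00368, −0.00959 and 0.0178, beside −0.0243 to 0.0276 for CTCF libraries of different number. H3K27ac libraries had 0.00227 and −0.00227, which mirror each other because each arm has 2 replicates. These values cannot show whether libraries were prepared in pairs, and the main tests did not pair them. With the replicate number as a block, the CTCF difference of −15.0 peaks had p = 0.25 (exact permutation, the smallest 3 pairs allow). The block leaves every difference as it was, so it could not change a direction.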
